A study of Sus scrofa with 6 samples.

Results

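The genes of major histocompatibility complex (MHC) class II antigen presentation were followed in porcine granulosa cells from antral follicles that were either healthy (HA) or atretic (AA). Of 8 names asked for, 5 stood in the gene table of 19442 genes exactly as written, namely SLA-DQA1, SLA-DQB1, SLA-DMA, SLA-DMB and CIITA. A further 2 were found under names that RefSeq lists as synonyms, SLA-DRA1 for SLA-DRA and SLA-DRB for SLA-DRB1. CD74, which encodes the invariant chain, was not found under its name and was not analysed here. The genes were matched by name, and SLA-DRA1 and SLA-DRB were added after the data were seen.

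Total RNA depleted of rRNA was sequenced in 3 libraries per group, each from the granulosa cells of a pool of follicles. The follicles came from young nulliparous gilts in the follicular phase of the cycle, for which no treatment is described, and were sorted by eye under a stereomicroscope. HA follicles had a vascular sheath and clear fluid, and AA follicles were opaque, belonged to advanced atresia and held floating apoptotic cells, which were collected with the scraped cells. Cells scraped from the wall were added to the fluid of their follicles in HA as in AA, and no step to remove leukocytes is described. The study examined the purity of such cells by staining for FSHR, a protein of granulosa cells, and reported nearly all of them as positive. It also reported that mRNA of the theca marker CYP17A1 was below detection by qRT-PCR. A library can still hold RNA of several cell types, and fewer cells of a type cannot be told apart from less RNA per cell. Because follicles were pooled, a library stands for several follicles, and whether libraries share a gilt is not given in the sources used here.

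MHC class II molecules, called SLA class II in the pig, are pairs of an alpha and a beta chain that carry peptides from the endosome to the cell surface and show them to CD4+ T cells. They are typical of macrophages, dendritic cells and B cells, while other cells can make them under interferon gamma. The invariant chain holds the groove until proteases of the endosome cut it away, the DM pair exchanges the remaining piece for a peptide, and CIITA is the coactivator that switches the whole group on. Macrophages are known to enter atretic follicles and to take up dying granulosa cells.

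The libraries other than AA library 2 held 13433327 to 15462462 fragments assigned to genes. AA library 2 was put at 20481332, but its fragment values in the gene lists used here were all even, unlike those of the others. Its fragments may thus be counted 2 times each, and its depth relative to the other libraries is uncertain. FPKM do not depend on this count. AA library 2 stood apart in content. The FPKM of 17 macrophage and pan-leukocyte markers summed to 492 in it, against 179 and 131 in AA libraries 1 and 3 and 56.9, 18.9 and 21.6 in HA libraries 1 to 3. Granulosa cell markers were abundant in all libraries, as their labels say. INHA, the inhibin alpha chain, ranged from 834 to 5418 FPKM, and CYP19A1, the aromatase, from 128 to 1052 FPKM, lower in every AA library than in any HA library. FSHR, the follicle-stimulating hormone receptor, went the other way, with 92.0, 88.3 and 90.0 FPKM in AA and 51.0, 33.3 and 28.4 FPKM in HA (adjusted p = 0.0594 in limma). CYP19A1, FSHR and CYP17A1 were named after their values were seen. Of the theca markers, CYP17A1 was at 0 to 1.38 FPKM, while INSL3 was at 11.3 to 46.7 FPKM. FPKM are fragments scaled to transcript length and to the mapped fragments of a library, so they allow levels of different genes to be set side by side.

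The 6 SLA genes lie in order on chromosome 7 of Sscrofa10.2. As the table gives positions, SLA-DRA1 ran from 29036551 to 29042147, SLA-DRB from 29113231 to 29125494, SLA-DQA1 from 29164955 to 29170803 and SLA-DQB1 from 29180890 to 29188688. SLA-DMB followed from 29485889 to 29491702 and SLA-DMA from 29500106 to 29504539. CIITA lies on chromosome 3, from 33125171 to 33145562. None of the 7 genes was the host of any of the 9362 circRNAs in the deposited circRNA table.

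The question was whether class II transcripts differ between granulosa cells of AA and HA follicles. The mean FPKM of the 6 SLA genes were 5.66 to 15.7 times as high in AA as in HA, or 2.75 to 9.09 times without AA library 2, and in 5 of the 6 every AA library lay above every HA library. The same separation was found for 11.9% of the 11001 genes tested. None of the 6 passed the threshold of an adjusted p of 0.05 in limma, and neither did any of the 11001 genes (0 called, 0%, with a smallest adjusted p of 0.0568). An unadjusted p of 0.05 or less was found for 1718 genes in either direction, 1043 of them higher in AA (9.48%), and all 6 SLA genes were among the latter. Limma was run on log2(FPKM + 1) for genes that reached 1 FPKM in 3 or more libraries. SLA-DQB1 met this filter only through the AA libraries, and SLA-DMA and SLA-DMB through the AA libraries and 1 HA library each, so the tested genes were not chosen evenly. Without the filter, 2 of the 6, SLA-DRA1 and SLA-DQB1, kept an unadjusted p of 0.05 or less, against 6.1% of all 19442 genes that were higher in AA by this measure. With the replicate number as a block, limma called 13 of all genes higher and none of the SLA genes, whose adjusted p then ran from 0.135 to 0.311.

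**Figure D1:**
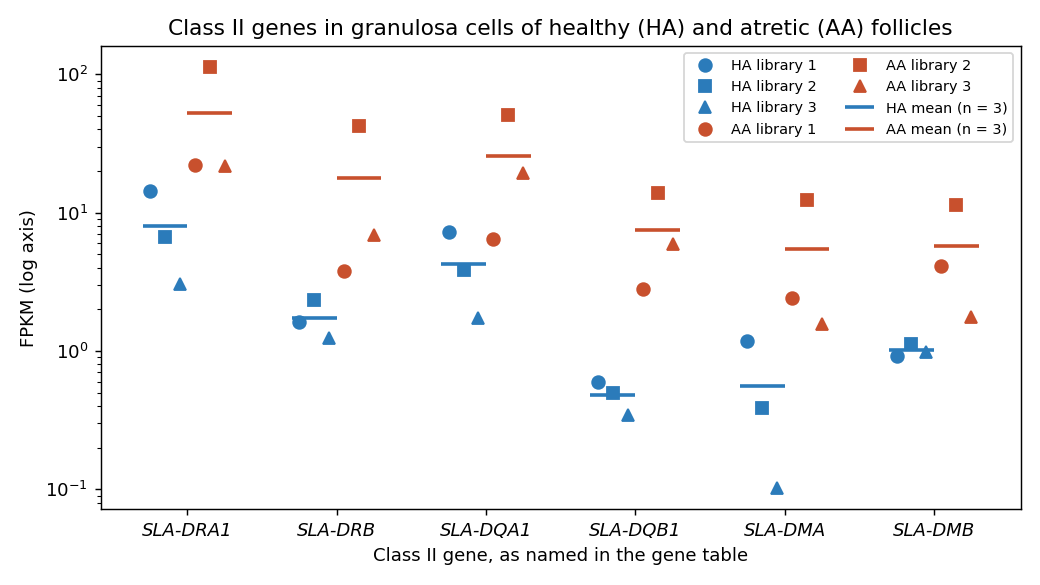
FPKM (log axis) of the 6 tested class II genes in each library, with 3 HA libraries in blue, 3 AA libraries in red, and a line at each group mean (n = 3). AA library 2 is the highest library for every gene, and the groups overlap in SLA-DQA1, where AA library 1 at 6.51 FPKM lies below HA library 1 at 7.29 FPKM.

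The DR pair presents peptides on most class II-positive cells. SLA-DRA1, the DR alpha chain, was the most abundant class II transcript in every library. It had 22.2, 113 and 21.9 FPKM in AA libraries 1, 2 and 3, and 14.4, 6.63 and 3.03 FPKM in HA libraries 1, 2 and 3. The groups did not overlap, AA libraries 1 and 3 were nearly equal, and HA library 1 came close to them. The AA mean was 52.4 ± 52.6 FPKM and the HA mean 8.02 ± 5.81 FPKM (± SD, n = 3). The difference of log2(FPKM + 1) was 2.33 ± 0.68 (SE, adjusted p = 0.158 in limma), and an exact two-sided permutation test gave p = 0.1, the smallest value that 3 against 3 libraries allow.

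The spread of SLA-DRA1 among libraries was wide within each group as well. In HA it covered a 4.75-fold range, and in AA library 2 it was 5.13 times the mean of AA libraries 1 and 3. In AA library 2 SLA-DRA1 exceeded 94.9% of the tested genes, and in HA library 3 it exceeded 15.5%. Behind these values stood 402, 3302 and 422 fragments in AA and 250, 137 and 61 in HA. The 3302 of AA library 2 may count each fragment 2 times.

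SLA-DRB, the DR beta chain, was lower than its partner in every library. It had 3.76, 42.7 and 6.86 FPKM in AA and 1.62, 2.35 and 1.24 FPKM in HA. The groups did not overlap, and the HA libraries lay within a 1.89-fold range of each other. The difference of log2(FPKM + 1) was 2.13 ± 0.72 (SE, adjusted p = 0.216 in limma). The DR beta region of the pig holds related gene copies and many alleles, and how the authors' tool placed reads shared among them is not given in the sources used here. SLA-DRB values, and in the same way those of the other polymorphic chains, are therefore uncertain as levels.

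The DQ pair is the second presenting molecule of pig class II. SLA-DQA1, the DQ alpha chain, had 6.51, 51.2 and 19.3 FPKM in AA and 7.29, 3.86 and 1.72 FPKM in HA. It was the one tested class II gene whose groups overlapped. The AA mean was 25.7 ± 23.0 FPKM and the HA mean 4.29 ± 2.81 FPKM (± SD, n = 3), a difference of log2(FPKM + 1) of 2.06 ± 0.68 (SE, adjusted p = 0.204 in limma; exact two-sided permutation p = 0.2).

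SLA-DQB1, the DQ beta chain, gave the smallest adjusted p of the group. It had 2.81, 13.9 and 5.90 FPKM in AA and 0.595, 0.498 and 0.346 FPKM in HA. The lowest AA library was well above the highest HA library, and no HA library reached 1 FPKM. The AA mean was 7.53 ± 5.71 FPKM and the HA mean 0.479 ± 0.125 FPKM (± SD, n = 3), a ratio of means of 15.7. The difference of log2(FPKM + 1) was 2.31 ± 0.48 (SE, adjusted p = 0.0805 in limma). This adjusted p depends on the filter, which SLA-DQB1 met only through AA, and it was 0.34 in limma without a filter. The HA values rest on 6, 6 and 4 fragments, against 29, 234 and 66 in AA, where the 234 of AA library 2 may count each fragment 2 times.

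The ratio of SLA-DQA1 to SLA-DQB1 in FPKM was 2.31, 3.69 and 3.27 in AA and 12.3, 7.75 and 4.98 in HA, without overlap (exact two-sided permutation p = 0.1, the smallest possible). Counted as fragments, SLA-DQB1 made up 18.7%, 12.8% and 14.3% of the DQ fragments in AA and 4.26%, 6.59% and 9.76% in HA. The exact 95% binomial interval of HA library 1, 1.58 to 9.03%, lay below those of AA libraries 1 and 3, whose lowest bound was 11.2%. Those of HA library 2 (2.46 to 13.8%) and HA library 3 (2.72 to 23.1%) overlapped them. The interval of AA library 2 (11.3 to 14.4%) is too narrow if its fragments are counted 2 times each, while its share does not depend on this. These intervals cover counting error only and take fragments as independent molecules. The DQ ratio was picked after its values were seen, among 6 ratios between class II genes, and the other 5 overlapped between the groups.

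**Figure D2:**
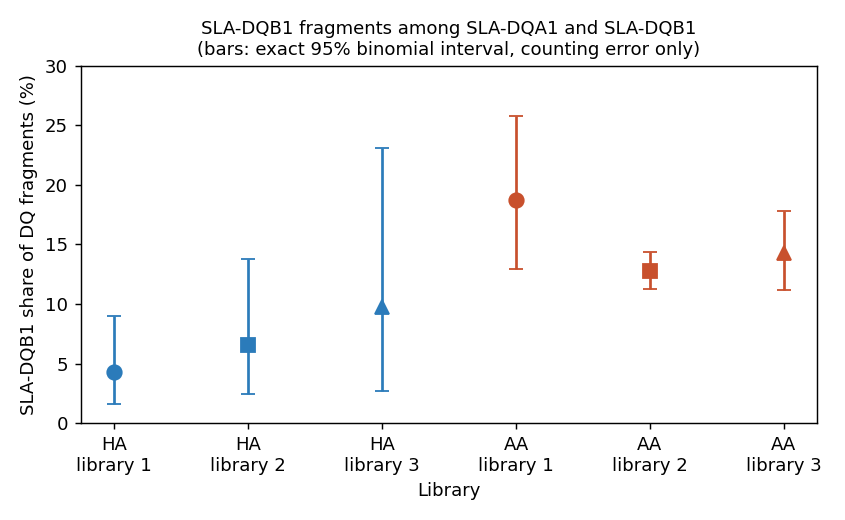
Share of SLA-DQB1 in the fragments of SLA-DQA1 and SLA-DQB1 (percent) by library, HA in blue and AA in red, with exact 95% binomial intervals as bars. The 3 HA shares of 4.26 to 9.76% lie below the 3 AA shares of 12.8 to 18.7%, but the intervals of HA libraries 2 and 3 reach into the AA range. The bar of AA library 2 may be too narrow, as its fragment unit is uncertain.

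For the DR pair the ratio of alpha to beta overlapped between the groups. It was 5.90, 2.65 and 3.19 in AA and 8.91, 2.82 and 2.44 in HA (exact two-sided permutation p = 0.9). The number 1 library had the highest ratio in each group. SLA-DRA1 made up 38.2 to 55.4% of the summed FPKM of the 6 SLA genes in every library, and SLA-DQB1 5.67 to 10.3% in AA and 2.28 to 4.66% in HA.

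The DM pair stays in the endosome and loads peptides. SLA-DMA had 2.41, 12.4 and 1.56 FPKM in AA and 1.18, 0.389 and 0.102 FPKM in HA. The groups did not overlap, but AA library 3 and HA library 1 were close. The difference of log2(FPKM + 1) was 1.71 ± 0.62 (SE, adjusted p = 0.24 in limma). In HA the values stand on 8, 4 and 1 fragments, so the 11.5-fold range among HA libraries is poorly known.

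SLA-DMB had 4.14, 11.3 and 1.76 FPKM in AA and 0.928, 1.13 and 0.977 FPKM in HA. Its HA values were the most even of the group, within a 1.21-fold range, and every AA library lay above them. The difference of log2(FPKM + 1) was 1.47 ± 0.51 (SE, adjusted p = 0.222 in limma). The DM ratio, SLA-DMA to SLA-DMB, was 0.582 to 1.1 in AA and 0.104 to 1.27 in HA, and thus overlapped.

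CIITA was barely seen. It had 8 fragments in AA library 3 (0.167 FPKM) and was listed at 0 in the other 5 libraries. A count of 0 allows up to 3 fragments. At the FPKM that a fragment of CIITA was worth in AA library 3, this is up to 0.0699 FPKM in the libraries other than AA library 2. For AA library 2, whose fragment unit is uncertain, no such bound is given. CIITA did not pass the filter and had no test, and a difference was not detectable at this depth.

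How far the comparison rests on AA library 2 was measured by leaving it out. The difference of log2(FPKM + 1) was then 1.56 ± 0.52 (SE) for SLA-DRA1, 1.18 ± 0.36 for SLA-DRB, 1.37 ± 0.58 for SLA-DQA1, 0.98 ± 0.41 for SLA-DMA and 0.91 ± 0.37 for SLA-DMB. Adjusted p in limma ranged from 0.363 to 0.548. SLA-DQB1 fell below the filter, and its difference of means was 1.80. All 6 differences kept their sign. AA library 2 was the highest of the 6 libraries for every SLA gene, which was so for 23.5% of the genes tested.

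**Figure D3:**
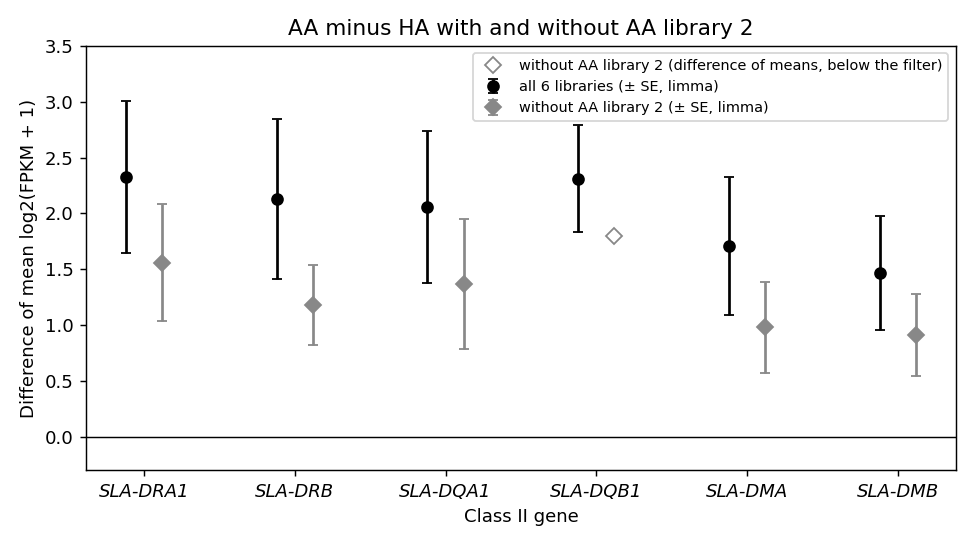
Difference between AA and HA in mean log2(FPKM + 1) of each tested class II gene, from all 6 libraries (black, with SE from limma) and without AA library 2 (grey, with SE, and an open mark without SE for SLA-DQB1, which fell below the filter). Each difference is smaller without AA library 2, from 2.33 to 1.56 in SLA-DRA1, and stays above 0.

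The summed FPKM of the macrophage and pan-leukocyte markers, like those of the 6 SLA genes, were higher in every AA library than in any HA library. Within groups the order of the libraries differed. The marker sum was higher in AA library 1 than in AA library 3, and lower in HA library 2 than in HA library 3. The class II sum went the other way in both cases. Of 17 markers in the table, 13 were tested, none was called, and all 13 had a positive difference with an unadjusted p of 0.05 or less, against 9.48% of all genes. CD14 and CD68 met the filter through the AA libraries and 1 HA library each, and PTPRC through 2 AA libraries and 1 HA library. The tested markers were thus not chosen evenly either. Without the filter, the unadjusted p in limma was 0.108 for PTPRC, 0.0659 for MRC1 and 0.0845 for SPI1. The median difference of log2(FPKM + 1) of the 13 markers was 2.04, beside 2.09 for the 6 SLA genes and 0.01 for all genes tested. Without AA library 2 the medians were 1.86 for the markers and 1.18 for the SLA genes that were still tested. PTPRC (difference of means 0.73) and SLA-DQB1 (1.80) then fell below the filter, so these medians leave them out. The wider gap between the medians depends in part on this. C1QC and C1QA, chains of complement C1q, had 41.2, 129 and 22.2 FPKM and 40.6, 121 and 13.1 FPKM in AA, and at most 13.5 and 6.28 FPKM in HA. MSR1, a scavenger receptor, had 21.7, 55.5 and 32.5 FPKM in AA and 7.61, 2.35 and 0.978 FPKM in HA. CD163, a hemoglobin scavenger receptor of macrophages, was listed at 0 in all 6 libraries.

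Set against these markers, the class II levels of the groups overlapped. The summed FPKM of the 6 SLA genes were 0.233, 0.497 and 0.436 times the marker sum in AA and 0.457, 0.787 and 0.344 times in HA (mean 0.389 ± 0.138 in AA and 0.530 ± 0.230 in HA, SD, n = 3). The ranges overlapped. Per 100 FPKM of marker sum, SLA-DRA1 was at 12.4 to 23.0 FPKM in AA and 14.1 to 35.1 FPKM in HA (exact two-sided permutation p = 0.4). SLA-DQB1 was at 1.57 to 4.49 FPKM in AA and 1.05 to 2.64 FPKM in HA (exact two-sided permutation p = 0.3). The part of leukocytes in the class II values was not tested beyond these ratios.

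**Figure D4:**
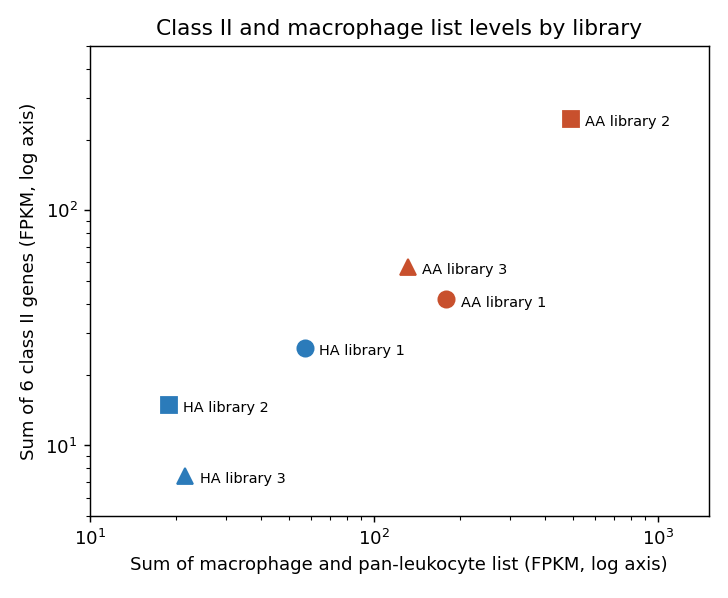
Summed FPKM of the 6 class II genes against summed FPKM of 17 macrophage and pan-leukocyte markers (both log axes), with 1 point per library, HA in blue and AA in red. AA library 2 is highest in both sums (244.6 and 492 FPKM), and HA libraries 2 and 3 are lowest (14.9 and 7.42 FPKM of class II).

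Markers of the other cells that carry class II were few. Of 6 B cell markers in the table, MS4A1, CD79B, PAX5 and BLK were listed at 0 in all 6 libraries, and the list summed to 0 to 1.53 FPKM. Of 10 dendritic cell markers, 6 were in the table. XCR1 and FLT3 stayed below 1 FPKM in every library, with XCR1 highest in AA library 2 (0.646 FPKM) and FLT3 in AA library 3 (0.942 FPKM). LAMP3 had 1.15 FPKM in AA library 2 and at most 0.18 FPKM in the others. CD83, an activation marker that is not limited to these cells, was at 37.8 to 160 FPKM and overlapped between groups (log2 difference 0.14, adjusted p = 0.922 in limma). The summed T and NK cell markers were 12.9 to 48.8 FPKM in AA and 11.3 to 17.2 FPKM in HA, with the highest value in AA library 2. Among these 10 markers, 3 were tested and none was called. CD247 overlapped between groups (log2 difference 0.1, adjusted p = 0.915 in limma). NKG7 was higher in every AA library than in any HA library (adjusted p = 0.228 in limma). CD4 had 13.7 FPKM in AA library 2 and at most 1.09 FPKM in the others. KLRK1 and CD3G, named after their values were seen, were listed at 0 in AA and reached 1.14 and 1.3 FPKM in HA. The 6 neutrophil markers summed to at most 1.49 FPKM. Endothelial markers summed to 9.81 to 31.5 FPKM in AA and 5.32 to 8.42 FPKM in HA. Fibroblast and smooth muscle markers summed to 52.3, 142.7 and 54.8 FPKM in AA and 37.5, 21.0 and 26.3 FPKM in HA, again with AA library 2 the highest. The part of these cells in the class II values was not tested.

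Among the factors that drive or restrain class II transcription or interferon signals, 13 were in the table, 11 were tested and none was called. Their median difference of log2(FPKM + 1) was 0.02, with members on both sides and JAK1 the 1 gene with an unadjusted p of 0.05 or less. RFX5, the DNA-binding subunit of the regulatory factor X complex, had 15.6 ± 1.54 FPKM in HA and 13.6 ± 1.33 FPKM in AA (SD, n = 3). NFYC, a subunit of the CCAAT-binding factor, had 40.7 ± 1.51 FPKM in HA and 42.2 ± 11.0 FPKM in AA (SD, n = 3). JAK1, a kinase of the interferon receptors, had 97.7, 150 and 101 FPKM in AA and 58.2, 59.2 and 50.1 FPKM in HA, without overlap (log2 difference 1.02 ± 0.20, adjusted p = 0.0719 in limma). IRF2, an interferon regulatory factor, had 16.1 to 27.0 FPKM in HA and 18.1 to 28.9 FPKM in AA. RFX5 was named after its values were seen.

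Genes of endosomal antigen processing went both ways. Of 13 in the table, 12 were tested and none was called, with 7 higher and 2 lower by an unadjusted p of 0.05 or less (9.48% and 6.14% of all genes), and a median difference of 1.23. CTSB, a cysteine protease of the lysosome, had 703, 1060.4 and 596 FPKM in AA and 410.3, 349 and 321 FPKM in HA (adjusted p = 0.0983 in limma). CTSL, a related protease, had 787, 393 and 471 FPKM in AA and 1378, 1366 and 1220 FPKM in HA (adjusted p = 0.0816 in limma). CTSB lay higher and CTSL lower in all AA libraries. AP2M1, a subunit of the clathrin adaptor of the cell surface, had 150.2 to 176.5 FPKM in AA and 131 to 153 FPKM in HA, which overlapped.

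CTSS, the protease that makes the last cut of the invariant chain in macrophages and dendritic cells, had 55.0, 221 and 73.9 FPKM in AA and 22.5, 11.2 and 6.75 FPKM in HA. The groups were far apart, with a log2 difference of 2.90 ± 0.55 (SE) and an adjusted p of 0.0683 in limma, and the difference without AA library 2 was 2.31 ± 0.44. CTSS was named after its values were seen.

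The neighbours of the SLA genes in the class II region were near 0 or overlapped between groups. BRD2, a bromodomain protein of wide expression whose gene lies at 29517204 to 29529204, had 112 to 146 FPKM in AA and 103 to 123 FPKM in HA (log2 difference 0.20 ± 0.17, adjusted p = 0.611 in limma). SLA-DOB, the beta chain of the DO pair that holds DM back in B cells, was at 0.0922 FPKM in HA library 3 and listed at 0 elsewhere. The gene at 29545478 to 29549278 is called SLA in the table, but the reference list pairs its identifier with SLA-DOA, and it stayed at or below 0.296 FPKM.

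MHC class I presentation was set beside class II for comparison. Of 18 genes in the table, 15 were tested and none was called, with 3 higher by an unadjusted p of 0.05 or less (9.48% of all genes), and a median difference of 0.31, against 2.09 for the 6 SLA class II genes. SLA-3, a class I heavy chain, had 89.8, 99.7 and 106 FPKM in AA and 57.1, 70.4 and 65.7 FPKM in HA (log2 difference 0.61 ± 0.16, adjusted p = 0.128 in limma). CALR, a chaperone of class I assembly among many other proteins, had 765 to 1431 FPKM in AA and 1121 to 1418 FPKM in HA, and CANX, another such chaperone, had 219 to 308 FPKM in AA and 263 to 288 FPKM in HA. Whether the class I and class II differences were unequal was not tested. SLA-3 was named after its values were seen. Of the costimulatory genes, 9 were in the table and 2 were tested, CD86 and CD58, and neither was called. CD86, a ligand of CD28 on T cells, had 1.66 to 2.35 FPKM in AA and 0.187 to 2.01 FPKM in HA. ICOSLG did not pass the filter and had no test in the fit given. It had 1.25, 2.13 and 0.881 FPKM in AA and 0.106, 0.246 and 0.0681 FPKM in HA, without overlap. Its HA values rest on 4, 11 and 3 fragments. The remaining costimulatory genes overlapped between the groups.

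The 6 SLA genes resembled each other over the libraries, with a Pearson r of log2(FPKM + 1) between 0.78 (SLA-DQA1 with SLA-DMB) and 0.98 (SLA-DRA1 with SLA-DMA) over 6 libraries. These values share the group difference and AA library 2, and are given as a description. Among the genes most like the mean of the 6 standardized profiles were PTPN21, AOX1, IFI30, AREL1, SEC31A, TXNRD1, NCKAP1L, ARAP2 and CD34, with r from 0.990 to 0.997, out of 9365 named genes, of which 225 reached an r of 0.95. IFI30, a thiol reductase that unfolds antigens in the endosome, had 23.8, 66.6 and 23.6 FPKM in AA and 12.9, 10.6 and 7.30 FPKM in HA. For SLA-DRA1 alone the list was GPC6, ZNF281, VIN, CD48 and SMAGP, with r from 0.991 to 0.998.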

How the data were processed

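By the paper, reads were trimmed with cutadapt and aligned to Sscrofa10.2 (susScr3) with bowtie2 for the circRNAs, and TopHat and Cufflinks are named for the genes used to place them. The tool behind the gene values is not stated. The deposited FPKM per gene and library are the authors' values. The deposited columns headed as counts were read as a signal scaled by 1 constant per library. From 99.4% to 99.8% of the values above 0 were whole multiples of that constant (within 0.05), and the fragments given are values divided by it. A constant too small by a whole factor would pass the same check. The constant was 0.6286 in AA library 2 and 0.9005 to 1.0672 in the others, and the AA library 2 fragments of the gene lists were all even. Fragments of AA library 2 may thus be counted 2 times each. The fragments served as depth, and no count test was run. The deposited junction read counts of the authors' circRNA table served only to look up host genes. No column of values was left unused (0).

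FPKM were tested with limma 3.58.1 (trend, R 4.3.3) on log2(FPKM + 1), AA against HA, for 11001 genes that reached 1 FPKM in 3 or more libraries, with Benjamini-Hochberg adjustment and a threshold of 0.05. The members, lists and named genes were chosen with earlier results of these data known. Of each further list, up to 3 genes with the highest mean FPKM were to be named, and those outside that rule are marked. Of the 10 genes most like the class II profile, 1 is not reported here. The table names 13088 genes and a reference list brings this to 14616. Names of list genes were matched by table name, then by identifier, and the higher of 2 rows of 1 name was taken. In the labels, AA and HA libraries of one number carry one date, taken here as a common day, so the replicate number was used as a block in an alternative. After centring on the group, same-numbered libraries correlated at -0.29, 0 and -0.40 over genes. Further alternatives were another pseudocount (0.1), no filter or 5 FPKM, quantile or median-ratio scaling, limma without the trend, other thresholds and leaving out each library. Replicates are separate pools, and p-values measure the spread between these pools.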

Additional observations from a re-analysis of the deposited data

How the results depend on the processing

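Each of the 6 tested SLA genes kept a positive difference in every alternative fit that tested it, from 9 fits for SLA-DQB1 to 13. Counted over genes and fits, these were 71 of 71 values from the same 6 libraries. None passed the threshold (adjusted p of 0.0699 to 0.549 in limma). With AA library 2 left out the differences of SLA-DRA1, SLA-DRB, SLA-DQA1, SLA-DMA and SLA-DMB were the lowest of their alternatives. The number of SLA genes called among those found by exact name was 0 in the fit given and 1 (SLA-DQB1) at an adjusted p of at most 0.1. Leaving out each library gave 0 to 0. With SLA-DRA1 and SLA-DRB, added after the data were seen, it was also 0. Leaving out any AA library puts SLA-DQB1 below the filter, which then needs 3 of 5 libraries, and 5 FPKM as the minimum leaves SLA-DRA1 and SLA-DQA1.

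Of all genes, limma called 0, but 243 at an adjusted p of at most 0.1, 13 with the replicate block, 11 with median-ratio scaling and 1 with no filter (BARX1, named after its values were seen). Leaving out each library gave 0 to 97 calls, the latter without AA library 3. The replicate block changed no call of an SLA gene. The cause of these changes was not tested. The median difference over all genes was 0.015, and -0.034 after quantile normalization. CIITA and the HA values of SLA-DQB1 and SLA-DMA are limited by depth.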
